A study of Mus musculus with 172 samples.

Results

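Gadd45a, Gadd45b, Gadd45g, Cdkn1a, Mdm2 and Ccng1 are 6 genes of the cellular stress and growth arrest response. They were chosen by name, and all 6 were listed in the tables of both tissues, out of 14896 genes listed in cortex, 14107 in liver and 16308 in either. RNA was measured in cerebral cortex and liver of young adult male mice of 33 BXD/RwwJ recombinant inbred lines, descended from crosses of C57BL/6J with DBA/2J, of both parental strains and of their reciprocal F1 hybrids. Mice were kept awake by gentle handling during the first 6 h of light (SD) or left undisturbed (Ctr), and SD and Ctr mice alike were killed at ZT6. RNA of several mice of a line was pooled before sequencing, with fewer mice for BXD79, BXD85 and BXD101, so that each of the 39 pools per tissue and condition (33 lines, 4 parental pools, 2 F1 pools) is a single library and the spread between mice within a line was not measured. A further 4 BXD/TyJ lines were kept apart.

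Gadd45a, Gadd45b and Gadd45g encode small, closely related stress sensors that bind the kinase MAP3K4, PCNA and cyclin-dependent kinases, and they are best known for induction by DNA damage and by other stresses; Gadd45b is also an activity-regulated gene of neurons. Cdkn1a encodes p21, an inhibitor of cyclin-dependent kinases and a classical target of the transcription factor p53, and is also induced by glucocorticoids. Mdm2 encodes the ubiquitin ligase that degrades p53 and is itself a p53 target, and Ccng1 encodes cyclin G1, another p53 target, which recruits a phosphatase to MDM2.

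The promoters of the members are shown because p53 is a known regulator of several of them and because several changed together. RefSeq gave 7 promoter windows for the 6 genes, each from 250 bases before to 50 bases after a gene start on build GRCm38.p6, with 2 windows for Cdkn1a. Both strands were searched for the p53 decamer (a single arm of the p53 response element, searched by its consensus), for the cAMP response element TGACGTCA and its shorter core TGACG, for the glucocorticoid receptor arm AGAACA, for the E-box CACGTG and for a serum response element core. A p53 decamer lay in the windows of Gadd45a, Mdm2, Ccng1 and the upstream window of Cdkn1a, which held 2, and in 8.36% of all 32851 promoter windows. In the 4 sequences, written along the gene's strand, capitals mark it and, in Mdm2, also the TGACG core on the opposite strand.
Cdkn1a, chr17:29090729-29091028, plus strand: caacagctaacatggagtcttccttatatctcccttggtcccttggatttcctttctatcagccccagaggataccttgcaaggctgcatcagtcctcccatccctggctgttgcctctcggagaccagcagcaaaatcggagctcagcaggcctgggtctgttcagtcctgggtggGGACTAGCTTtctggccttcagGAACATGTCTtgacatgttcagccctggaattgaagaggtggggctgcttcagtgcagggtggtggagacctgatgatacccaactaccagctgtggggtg
Gadd45a, chr6:67037358-67037657, minus strand: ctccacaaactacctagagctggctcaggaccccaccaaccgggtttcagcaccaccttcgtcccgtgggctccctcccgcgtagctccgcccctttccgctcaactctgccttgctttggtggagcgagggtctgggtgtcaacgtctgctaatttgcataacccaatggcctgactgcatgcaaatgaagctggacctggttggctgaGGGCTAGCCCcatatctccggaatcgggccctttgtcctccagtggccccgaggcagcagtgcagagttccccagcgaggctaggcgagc
Mdm2, chr10:117710709-117711008, minus strand: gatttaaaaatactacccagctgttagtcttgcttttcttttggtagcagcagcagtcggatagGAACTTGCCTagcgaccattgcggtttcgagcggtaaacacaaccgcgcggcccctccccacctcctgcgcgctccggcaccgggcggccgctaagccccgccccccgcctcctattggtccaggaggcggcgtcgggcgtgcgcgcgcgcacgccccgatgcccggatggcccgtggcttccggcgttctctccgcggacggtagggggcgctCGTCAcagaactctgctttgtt
Ccng1, chr11:40755237-40755536, minus strand: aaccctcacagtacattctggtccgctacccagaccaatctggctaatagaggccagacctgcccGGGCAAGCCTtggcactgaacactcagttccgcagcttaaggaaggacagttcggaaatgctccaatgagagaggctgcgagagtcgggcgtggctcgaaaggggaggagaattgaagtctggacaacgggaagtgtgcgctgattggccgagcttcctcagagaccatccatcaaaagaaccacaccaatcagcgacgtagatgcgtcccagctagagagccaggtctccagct

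The E-box was found in the windows of Gadd45b (180 to 185 bases before the start) and Gadd45g (137 to 142 bases before it), and in 7.15% of all windows. TGACG was found in Mdm2 alone among the 7 windows, against 20.8% of all. No member window held TGACGTCA, of which TGACG is a part, and 1.79% of all windows did. Neither the glucocorticoid receptor arm (19.0% of all windows) nor the serum response core (0.0639%) was found in a member window. A match describes letters only, and binding was not measured.

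The levels of the genes can be set side by side only per length, as CPM divided by the exonic length in kilobases from GENCODE M1 on mm9. In cortex of Ctr pools Ccng1 stood above all other members, at a median of 31.9 CPM per kb (27.7 to 37.2), and no pool of another gene reached its lowest value except for Cdkn1a in a single pool. Mdm2 followed with 8.85 (7.76 to 10.1). Cdkn1a (5.82), Gadd45b (5.79) and Gadd45g (4.77) overlapped over most of their range, and Gadd45a was lowest at 2.17 (1.47 to 4.32). The order was another one after SD, with Cdkn1a in second place at 20.1 (12.1 to 29.9).

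Liver values come from a table that the authors filtered and normalized apart from cortex. Ccng1 again had the highest median of the members in Ctr pools there, at 31.0 CPM per kb (28.3 to 40.5). Gadd45a (13.95), Mdm2 (13.7) and Gadd45g (12.5) formed an overlapping middle group. The values of Gadd45g ran from 3.99 to 41.8, a far wider span than the 11.8 to 16.4 of Mdm2. The highest Gadd45g pool thus lay above the highest Ccng1 pool. Cdkn1a (2.42) and Gadd45b (1.497) were lowest, and their ranges overlapped. Within the Gadd45 family, Ctr medians were thus lowest for Gadd45a in cortex and for Gadd45b in liver. After SD the liver medians were 21.9 for Gadd45g, 10.1 for Gadd45a and 1.95 for Gadd45b, and the ranges of Gadd45g and Gadd45a overlapped.

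The tissue labels were checked with marker genes. All 6 neuron, 5 astrocyte, 4 oligodendrocyte, 5 microglia and 4 endothelial markers were listed in cortex, while none of the 5 hepatocyte, 4 Kupffer cell, 5 B cell, 4 T and NK cell or 5 neutrophil markers was. All 5 hepatocyte, 4 Kupffer cell and 4 cholangiocyte markers were listed in liver, where Snap25, Slc17a7, Gad1 and Gad2 of the neuron list and Mog and Mobp of the oligodendrocyte list were not.

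Some libraries stood apart for these genes, and in cortex it was mainly that of BXD56. In the cortex Ctr pool of BXD56, Cdkn1a was at 6.10 log2 CPM, and the next highest Ctr pool, BXD97, was at 4.804. Gadd45b was at 4.72 there against 3.40 in the next pool, Gadd45g at 3.57 against 3.11, and Gadd45a at 2.93 against 2.51. This library thus held the highest Ctr value of these 4 genes and of Mdm2, while Ccng1 ranked 32nd of 39. Among activity-regulated genes, Arc and Egr1, picked after their values were seen, ranked 12th and 29th in the same library, at 6.52 and 7.52 log2 CPM, below the lowest SD pools (8.68 and 8.55). Fos ranked 8th (4.22) and Npas4 38th (3.26), so that the library was not high in all such genes. Without BXD56 the cortex log2 fold changes were 0.94 for Gadd45a, 0.77 for Gadd45b, 0.54 for Gadd45g, 1.70 for Cdkn1a, 0.20 for Mdm2 and 0.14 for Ccng1, and all 6 passed (adjusted p at most 8.37e-07, limma).

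In liver the Ctr pool of BXD85 had Cdkn1a at 5.10 log2 CPM against 3.86 in the next pool, and also the highest Gadd45g. BXD85 was among the lines whose pools held fewer mice. The SD pool of BXD95 had Cdkn1a at 5.98 against 4.76, and the Ctr pool of DB-F1 had Ccng1 at 7.15 against 6.91. With BXD85 left out, Cdkn1a rose by a log2 fold change of 1.02 (adjusted p = 1.80e-06, limma) and Gadd45g by 0.55 (adjusted p = 0.0115). Without DB-F1 that of Ccng1 was 0.16 (adjusted p = 6.15e-10), and leaving out any single pool kept that of Cdkn1a between 0.87 and 1.02.

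In cortex, all 6 members rose after SD, in a tissue in which 68.4% of genes passed the test (33.0% up and 35.4% down). SD and Ctr pools were compared over all genes with limma, with Benjamini-Hochberg adjusted p under 0.05 as the threshold. Since RNA is bulk, fewer cells of a type and less RNA per cell cannot be told apart. P-values measure the spread between pools. The fold changes of the members were spread over a wide range, from the 3.11-fold of Cdkn1a, the 19th largest absolute change of 14896 genes, to the 1.10-fold of Ccng1, ranked 6805th.

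Among the stress sensors, Gadd45a (chromosome 6 of mm9, 66985090 to 66987451, minus strand) was at 1.38 log2 CPM in the lowest Ctr pool of cortex, 1.94 in the median and 2.93 in the highest, and at 2.58, 2.88 and 3.30 in SD pools. The SD pools lay above every Ctr pool but that of BXD56, and each of the 39 pools rose. Its log2 fold change was 0.92 (SE 0.059, adjusted p = 1.44e-24, limma). The smallest rise was 0.07 in BXD89 and the largest 1.68 in BXD96.

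Gadd45b (chromosome 10 of mm9, 80392836 to 80394949, plus strand) ranged over 2.58, 2.87 and 4.72 log2 CPM (lowest, median and highest) in cortex Ctr pools and over 3.17, 3.73 and 4.12 in SD pools. Leaving aside BXD56, only 3 SD pools lay within the Ctr range. The log2 fold change was 0.73 (SE 0.065, adjusted p = 7.31e-17, limma), with a rise in 38 of 39 pools and a fall of -1.11 in BXD56.

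Gadd45g (chromosome 13 of mm9, 51942047 to 51943837, plus strand) had the smallest response of the family in cortex, and its groups overlapped most. Ctr pools ranged over 1.92, 2.48 and 3.57 log2 CPM, and SD pools over 2.58, 3.05 and 3.54. Over all pools the log2 fold change was 0.51 (SE 0.059, adjusted p = 2.48e-12, limma), with a rise in 35 of 39 pools, the exceptions being BXD56, BXD89, BXD90 and BXD97.

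Cdkn1a (chromosome 17 of mm9, 29227924 to 29237667, plus strand) showed the largest response of the 6. Its cortex Ctr pools ranged over 3.27, 3.69 and 6.10 log2 CPM and its SD pools over 4.75, 5.48 and 6.06. Without BXD56, 38 of the 39 SD pools lay above every Ctr pool. The log2 fold change was 1.64 (SE 0.088, adjusted p = 4.95e-29, limma), and BXD56 was the only pool in which Cdkn1a fell (-0.58).

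The p53 antagonist Mdm2 (chromosome 10 of mm9, 117125944 to 117147814, minus strand) changed little in size but in every pool. Ctr pools of cortex ranged over 5.30, 5.49 and 5.67 log2 CPM and SD pools over 5.52, 5.65 and 5.82, so that the groups overlapped. Its log2 fold change was 0.19 (SE 0.018, adjusted p = 4.93e-16, limma), with a rise in 39 of 39 pools from 0.03 (BXD56) to 0.42 (BXD44).

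Ccng1 (chromosome 11 of mm9, 40562054 to 40568813, minus strand) ranged over 6.61, 6.81 and 7.03 log2 CPM in cortex Ctr pools and over 6.72, 6.93 and 7.23 in SD pools. Most SD pools lay within the Ctr range. Its log2 fold change was 0.14 (SE 0.024, adjusted p = 2.83e-07, limma), with a rise in 37 of 39 pools.

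**Figure D1:**
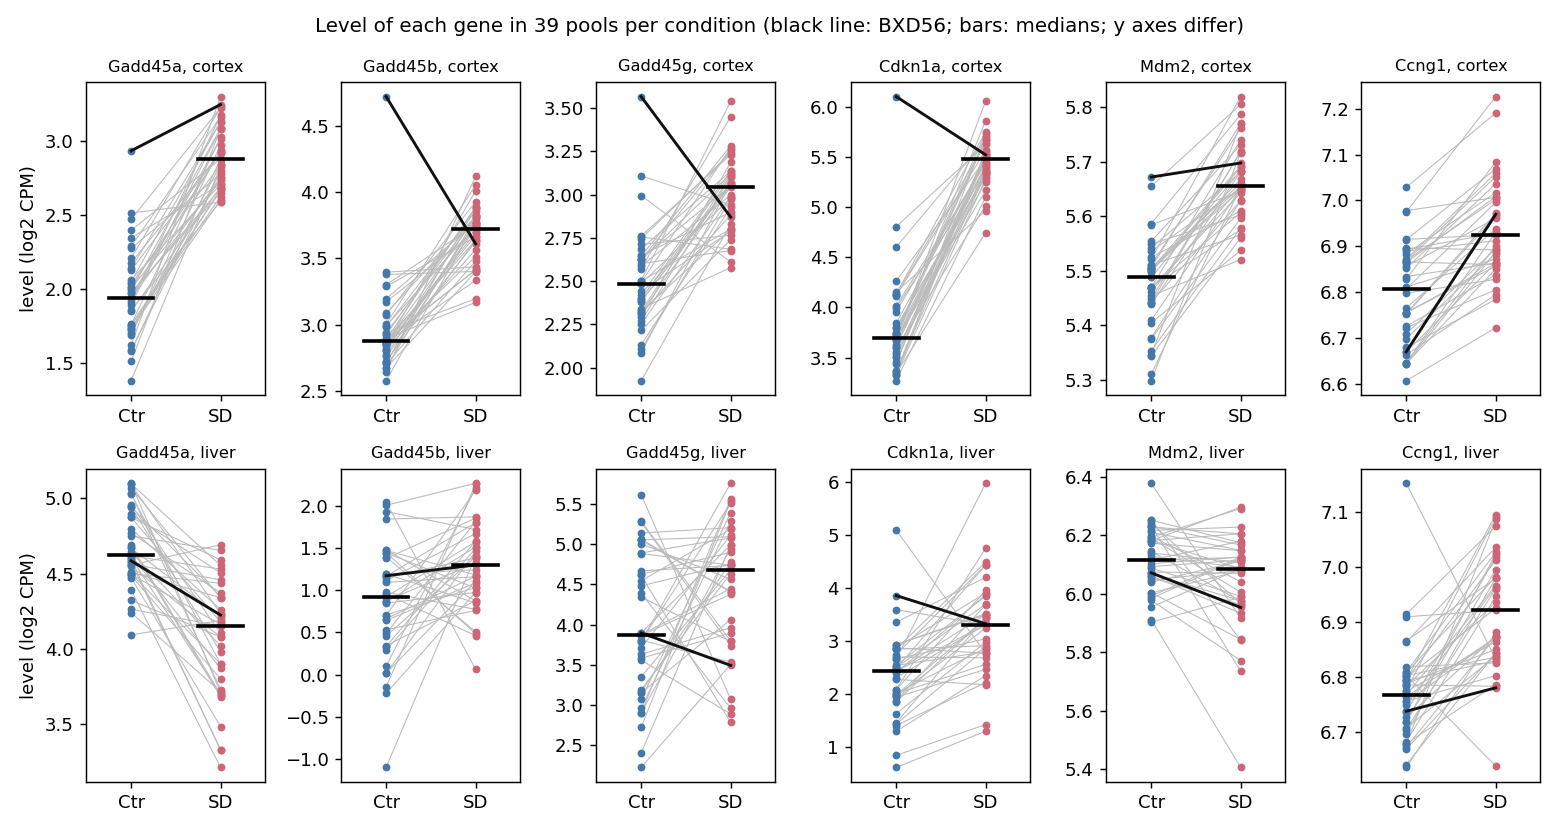
Level of the 6 genes in log2 CPM (y axes differ) in Ctr and SD pools of cortex (top) and liver (bottom), 39 pools each, with lines joining the pools of a line, bars at the medians and BXD56 in black. In cortex the Ctr value of BXD56 lies above all other Ctr pools for 5 genes, and in liver Gadd45a is lower after SD in 37 of 39 pools.

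BXD89 had the lowest or second lowest change in cortex of Gadd45a (0.07), Gadd45b (0.02), Cdkn1a (0.81) and Ccng1 (-0.0042). Its Ctr pool had the highest Ctr level of Arc (8.16 log2 CPM), Fos (5.32) and Npas4 (5.09) of all 39 pools, while Egr1 was highest in BXD101 (8.63). The SD level of Cdkn1a in BXD89 was the second lowest of the 39 pools.

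In liver, all 6 members passed the test, 4 upward and 2 downward, where 44.2% of genes passed it, 21.5% up and 22.6% down. Gadd45a fell, as did Mdm2 by a small amount, and Gadd45b, Gadd45g, Cdkn1a and Ccng1 rose. The calls of Gadd45g and Mdm2 were close to the threshold and depended on single pools.

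Gadd45a was at 4.09 log2 CPM in the lowest Ctr pool of liver, 4.62 in the median and 5.10 in the highest, and at 3.21, 4.15 and 4.69 in SD pools. The groups overlapped, but 18 SD pools lay below every Ctr pool. The log2 fold change was -0.61 (SE 0.073, adjusted p = 3.56e-11, limma), a fall in 37 of 39 pools, with a rise in BXD64 and BXD70 only. The largest fall was in BXD100 (-1.39).

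Gadd45b was scarce in liver, with a median of 12 reads per Ctr library and 14 per SD library. Its Ctr pools ranged over -1.10, 0.92 and 2.05 log2 CPM and its SD pools over 0.06, 1.30 and 2.27. The groups overlapped over most of their range. On average it rose by a log2 fold change of 0.43 (SE 0.14, adjusted p = 0.00607, limma), with a rise in 29 of 39 pools.

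Gadd45g differed more from pool to pool in liver than nearly all other genes, since the SD of its change (1.33) was at the 98.3rd percentile of all genes. Ctr pools ranged over 2.23, 3.88 and 5.62 log2 CPM and SD pools over 2.79, 4.68 and 5.76, with nearly full overlap. The log2 fold change was 0.47 (SE 0.19, adjusted p = 0.0359, limma), with a rise in 26 and a fall in 13 pools, from -2.54 in BXD85 to 2.82 in BXD73. The adjusted p passed 0.05 when any of 12 pools was left out (0.0532 to 0.0736): BXD49, BXD55, BXD61, BXD67, BXD73, BXD84, BXD87, BXD96, BXD101, both C57BL/6J pools and the second DBA/2J pool.

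Cdkn1a in liver ranged over 0.61, 2.43 and 5.10 log2 CPM in Ctr pools and over 1.30, 3.31 and 5.98 in SD pools. The groups overlapped, and the lowest pool of both was BXD48. Its log2 fold change was 0.94 (SE 0.19, adjusted p = 2.46e-05, limma), with a rise in 33 of 39 pools. The change ran from -2.33 in BXD85, which had the highest Ctr level, to 3.33 in BXD95, which had the highest SD level.

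Mdm2 in liver ranged over 5.90, 6.12 and 6.38 log2 CPM in Ctr pools and over 5.41, 6.09 and 6.30 in SD pools. The groups overlapped almost throughout. Its log2 fold change was -0.076 (SE 0.032, adjusted p = 0.0449, limma), with a fall in 24 and a rise in 15 pools. The adjusted p passed 0.05 (0.0530 to 0.0896) without any of 15 pools, namely BXD43, BXD45, BXD48, BXD49, BXD50, BXD55, BXD56, BXD61, BXD73, BXD87, BXD89, BXD98, BXD100, BXD103 and DB-F1.

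Ccng1 rose in liver too. Its Ctr pools ranged over 6.64, 6.77 and 7.15 log2 CPM and its SD pools over 6.64, 6.92 and 7.10, and the groups overlapped. Its log2 fold change was 0.15 (SE 0.022, adjusted p = 6.15e-08, limma), with a rise in 36 of 39 pools and the largest fall in DB-F1 (-0.32).

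Markers of blood cells moved in the same liver libraries. All 5 B cell markers fell, with a median log2 fold change of -1.44, and Cd79b was the most abundant. Their summed level ranged over 2.78, 3.68 and 4.74 log2 CPM (lowest, median, highest) in Ctr pools and over 1.29, 2.42 and 3.75 in SD pools. Of the neutrophil markers, S100a8 and S100a9 were listed and fell, whereas Ly6g, Camp and Ngp were not listed. None of the 4 Kupffer cell, 4 T and NK cell or 6 dividing cell markers passed the test in liver (limma), but in the fit that pairs pools of a line in a replicate block Clec4f (adjusted p = 0.02004), Cd5l (0.00136), Cd8a (0.0166) and Top2a (0.0233) did. Markers of other cells moved in liver as well, among them Syt1 (-0.82, a fall in 39 of 39 pools), Tmem119 (0.82), Aif1 (-0.44), Sox9 (-0.41), Cldn5 (-0.37), Gja1 (0.33), Mbp (-0.30), Pecam1 (0.25) and Hnf4a (0.094).

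In cortex 4 of 6 neuron, 1 of 5 astrocyte, 2 of 4 oligodendrocyte, 3 of 5 microglia and 3 of 4 endothelial markers passed (limma), in either direction within most lists and beside 68.4% of all genes. The largest of these changes were those of P2ry12 (-0.33), Mog (-0.27), Mobp (0.25) and Cldn5 (-0.24). Sox9 (-0.28) and the dividing cell marker Top2a (0.22) passed as well. With the line as a block 4 of 5 astrocyte markers passed, all upward. Listed markers of choroid plexus, pituitary, erythroid cells and exocrine pancreas did not pass in either tissue. The part of these cells in the changes of the 6 genes was not tested.

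**Figure D2:**
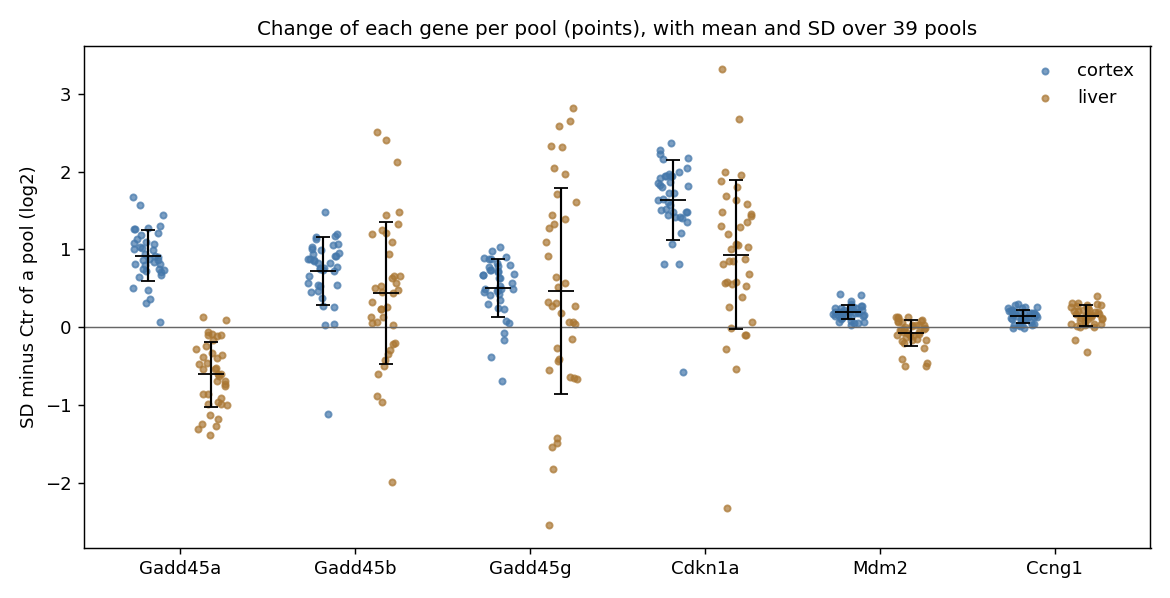
Change of each gene (SD minus Ctr, log2) in each of 39 pools in cortex and liver, with the mean and SD over pools. Gadd45a is above 0 in all cortex pools and below 0 in 37 liver pools, and Gadd45g in liver spreads from -2.54 to 2.82.

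Tissues were compared directly by subtracting, pool by pool, the cortex change from the liver change, a test that 57.6% of 12695 genes passed. It passed for Gadd45a, Cdkn1a and Mdm2, 3 of the 6. For Gadd45a it was -1.53 on the log2 scale (SE 0.082, adjusted p = 7.40e-20, limma), and the liver change was below the cortex change in 39 of 39 pools. For Cdkn1a it was -0.70 (SE 0.14, adjusted p = 3.26e-05), and the liver change was below the cortex change in 33 of 39 pools, in 5 of which Cdkn1a rose in cortex and fell in liver. For Mdm2 it was -0.27 (SE 0.026, adjusted p = 9.52e-12), and 38 of 39 pools had the lower change in liver.

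Gadd45b, Gadd45g and Ccng1 did not pass that test. The difference was -0.29 for Gadd45b (approximate 95% interval -0.59 to 0.0075, adjusted p = 0.0991, limma), which passed without BXD50 or BXD65 (adjusted p down to 0.0347). For Gadd45g the interval was wide, from -0.43 to 0.35, and for Ccng1 it was narrow, from -0.042 to 0.052. A p above the threshold does not show that the tissues were alike.

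The parental strains, each with 2 pools, show how far separate pools of 1 genotype differed. The paper states that these strains were studied at the start of data collection and again at its end. Differences between repeats therefore also hold any change over that time. In cortex the Cdkn1a change was 1.61 and 1.94 in the C57BL/6J pools and 1.97 and 2.04 in the DBA/2J pools. In liver the Gadd45g change was 2.58 and 1.71 in C57BL/6J and 0.91 and 1.33 in DBA/2J, and the Ctr levels of repeats differed by 1.39 in C57BL/6J and by 0.20 in DBA/2J. For Gadd45b in liver the changes of repeats were close, at -0.21 and -0.34 in C57BL/6J and 1.209 and 1.203 in DBA/2J, but the Ctr levels of the second pools lay below the first by differences of -0.74 and -0.51. These values rest on few reads, since the median over the 39 pools was 12 per Ctr library and 14 per SD library. For Mdm2 in cortex and Ccng1 in both tissues, repeats of C57BL/6J differed by more than the mean response. In that strain the Mdm2 change in cortex was 0.42 and 0.19. The Ccng1 change there was 0.19 and 0.010 in cortex and 0.13 and 0.41 in liver. Repeats of DBA/2J differed by less than the mean response in these cases, by 0.186, 0.102 and 0.132. For Mdm2 in liver, repeats of both strains differed by less than the mean response (0.066 in C57BL/6J and 0.068 in DBA/2J). There Mdm2 rose in every parental pool, by 0.033 and 0.099 in C57BL/6J and by 0.13 and 0.063 in DBA/2J. The mean response over the 39 pools was a fall (-0.076). With 2 pools per strain, the difference between strains was not tested.

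The reciprocal F1 hybrids, a single pool each, changed in opposite directions or by unlike amounts for some genes. Mdm2 in liver changed by 0.08 in BD-F1 and by -0.16 in DB-F1, Gadd45g by -1.54 and -0.27, and Ccng1 by 0.15 and -0.32. The liver Ctr library of DB-F1 had the fewest reads of its group (5034166) and the scaling factor farthest from 1 (log2 TMM factor -0.123), so that its differences from BD-F1 cannot be told apart from those of the library. Of the 4 BXD/TyJ lines, BXD29 and BXD29t share a number by their labels and are counted here as separate lines. Cdkn1a and Gadd45a rose in cortex in all 4 lines, by a mean of 1.83 ± 0.48 and 1.01 ± 0.32 (SD, n = 4). Gadd45g rose in 2 and fell in 2 of them in each tissue, with a mean change of 0.27 ± 0.41 in cortex and 0.76 ± 2.08 in liver. In liver of these lines Gadd45a fell in all 4, with a mean change of -1.25 ± 0.52.

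Whether lines with a high Ctr level also had a high SD level was asked over the 33 BXD/RwwJ lines, with Pearson's r, Spearman's rho and permutation tests adjusted over 48 relations. By their labels 3 of these lines, BXD96, BXD97 and BXD103, are sublines of BXD48, BXD65 and BXD73, and the permutations treat all lines as independent. Of 12 relations that of Ccng1 in cortex passed, with r = 0.73 (permutation p = 1e-05, the smallest possible, adjusted p = 0.00016) and rho = 0.67 (permutation p = 5e-05, adjusted p = 0.0012). Without the 2 lines farthest from the median Ctr level r was 0.64, and without the 3 sublines 0.72. Over all 13743 genes in cortex 11.1% had an r at least that of Ccng1, and the median r was 0.34 against 0.18 for the 6 members. The other 11 relations did not pass, and r ranged from -0.24 (Gadd45b in liver) to 0.41 (Mdm2 in cortex, permutation p = 0.0157, adjusted p = 0.0697). Whether the relations differ from each other was not tested. Cdkn1a in liver did not pass either (r = 0.37, permutation p = 0.0362, adjusted p = 0.134, rho = 0.40, permutation p = 0.0212, adjusted p = 0.127), and 55.0% of 12871 genes in liver had an r at least as high.

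The changes of some members went together over lines in cortex. For 8 of 15 pairs the correlation passed, and for none of 15 in liver, where 1 pair had an unadjusted p under 0.05 (Gadd45a with Cdkn1a, r = -0.37, permutation p = 0.0330, adjusted p = 0.132), though whether the correlations differ between tissues was not tested. The 7 other cortex pairs were the 5 with Ccng1 and those of Gadd45a and of Gadd45g with Mdm2. Of all pairs of 13743 genes in cortex, 7.76% had an r at least as far from 0 as the weakest of the 8 (0.45), against 13.6% of pairs of 12871 genes in liver. Both changes of a pair come from the same libraries of a line. Gadd45b had a median of 12 reads per Ctr library and 14 per SD library in liver, against 168 and 297 in cortex. The closest pair was Gadd45b and Cdkn1a in cortex (r = 0.86, permutation p = 1e-05, adjusted p = 0.00016, rho = 0.71, permutation p = 2e-05, adjusted p = 0.00096, n = 33). Without the 2 lines farthest in the Gadd45b change, r was 0.65, and without BXD56 alone it was 0.71 (permutation p = 1e-05, adjusted p = 0.00024).

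Gadd45b and Gadd45g followed (r = 0.76, permutation p = 1e-05, adjusted p = 0.00016, rho = 0.57, permutation p = 0.00058, adjusted p = 0.00928), with r = 0.59 without the 2 farthest lines and 0.64 without BXD56. For Gadd45a with Gadd45b, r was 0.58 (permutation p = 0.0003, adjusted p = 0.00288) and rho 0.53 (permutation p = 0.00208, adjusted p = 0.0166), with r = 0.52 without the 2 farthest lines. For Gadd45g with Cdkn1a, r was 0.67 (permutation p = 0.00021, adjusted p = 0.00252) and rho 0.39 (permutation p = 0.0267, adjusted p = 0.132), with r = 0.50 without the 2 farthest lines and 0.48 without BXD56. Of the 8 pairs, 5 also passed in rho and 6 passed without BXD56. Gadd45a with Gadd45g (r = 0.48, permutation p = 0.00512, adjusted p = 0.0307, rho = 0.33) did not pass without BXD56 (r = 0.39, adjusted p = 0.140). Gadd45a with Cdkn1a (r = 0.45, permutation p = 0.0087, adjusted p = 0.0464, rho = 0.33) did not pass without it either (r = 0.35, adjusted p = 0.179). In both pairs r was 0.39 without the 2 farthest lines.

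Mdm2 changed along with Gadd45b (r = 0.59, permutation p = 0.0005, adjusted p = 0.004) and Cdkn1a (r = 0.55, permutation p = 0.0011, adjusted p = 0.00754) in cortex, and its rho was 0.55 (adjusted p = 0.0166) and 0.52 (adjusted p = 0.0166). Without the 2 farthest lines r was 0.51 for Gadd45b, and 0.45 for Cdkn1a, which then did not pass (adjusted p = 0.0639). No pair with Ccng1 passed in cortex. Its r was -0.20 with Cdkn1a, -0.17 with Gadd45g, -0.14 with Gadd45b, 0.029 with Mdm2 and 0.17 with Gadd45a, and without BXD56 it was 0.053, 0.0036, 0.13, 0.15 and 0.31. No member passed the test of its cortex change against its liver change over lines, with r from 0.04 (Gadd45a) to 0.42 (Mdm2, permutation p = 0.0160, adjusted p = 0.0697, rho = 0.38, permutation p = 0.0276, adjusted p = 0.132). Of 11411 genes 1.19% had an r at least that of Mdm2, and the median r over genes was 0.014.

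**Figure D3:**
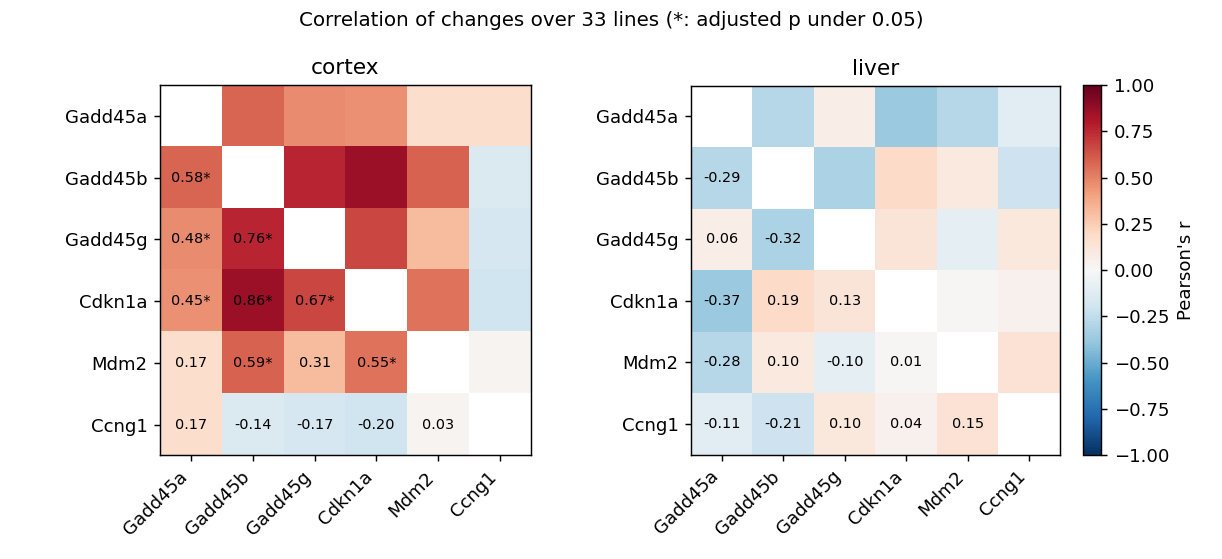
Pearson's r of the change (SD minus Ctr) of each pair of genes over 33 BXD/RwwJ lines, in cortex (left) and liver (right), with asterisks at an adjusted p under 0.05. In cortex 8 of 15 pairs carry an asterisk, none of them with Ccng1, and in liver none does.

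**Figure D4:**
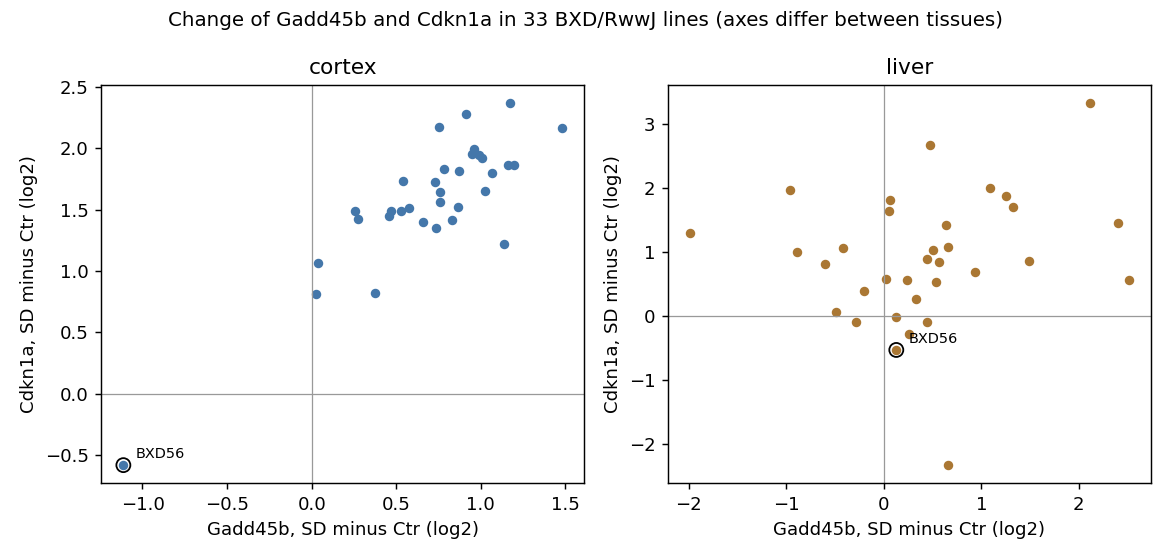
Change (SD minus Ctr, log2) of Gadd45b on the x axis and Cdkn1a on the y axis in 33 BXD/RwwJ lines, in cortex (left) and liver (right), with BXD56 circled. In cortex r is 0.86, and 0.71 without BXD56, and in liver r is 0.19, where Gadd45b has few reads (median 12 per Ctr and 14 per SD library).

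For each member the 3 genes with the most similar change over the 39 pools were found by Pearson's r, among 13743 genes in cortex and 12871 in liver with a mean of at least 0 log2 CPM. In cortex these were Rgs2 (0.87), Nptx2 (0.85) and Tpm1 (0.84) for Gadd45b, and Plat (0.84), Gadd45b (0.83) and Nptx2 (0.80) for Cdkn1a. Nptx2 was also among the nearest genes of Gadd45g (0.76), between Cct3 (0.77) and Tspan31 (0.75). Gadd45a was nearest to Pdia3 (0.71), Aggf1 (0.68) and Pmpcb (0.68), Mdm2 to Mcl1 (0.72), Ptgs2 (0.71) and N4bp1 (0.68), and Ccng1 to Zfp72 (0.63), Acbd5 (0.62) and Kif3a (0.62). The high Ctr pool of BXD56 enters all of these values. Without it r was 0.73, 0.68 and 0.67 for the genes nearest to Gadd45b, 0.71, 0.67 and 0.54 for those of Cdkn1a, and 0.72, 0.68 and 0.65 for those of Gadd45g, and it ranged from 0.56 to 0.71 for those of the other members.

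In liver the nearest genes of Gadd45g were Myc (0.89), Foxq1 (0.86) and Phlda1 (0.78). Myc thus varied with Gadd45g over pools, but its own log2 fold change was 0.15 (adjusted p = 0.575, limma), with a rise in 21 and a fall in 18 pools. Gadd45a was nearest to Nrep (0.66), Ankrd37 (0.63) and Tgm1 (0.61), Gadd45b to Sox9 (0.59), Frmd4b (0.58) and Zfp750 (0.55), and Cdkn1a to Slc45a3 (0.74), Slc2a1 (0.69) and Baiap2 (0.67). Mdm2 was nearest to Zfp148 (0.82), Pak2 (0.81) and Pds5b (0.78), and Ccng1 to Pafah1b1 (0.67), Cggbp1 (0.66) and Usp14 (0.63).

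Other genes of the p53 pathway were read from lists, whose called shares stand beside those of all genes (68.4% in cortex and 44.2% in liver), with no test of the difference. Of 13 listed p53 regulators, 3 rose and 4 fell in cortex, with a median log2 fold change of 0.010 against -0.0097 over all genes, and 3 rose and 3 fell in liver (median -0.031 against -0.0015), so that 53.8% and 46.2% passed. Trp53, which encodes p53, fell in cortex by a log2 fold change of -0.087 (SE 0.028, adjusted p = 0.00402, limma) in 29 of 39 pools and rose in liver by 0.12 (SE 0.030, adjusted p = 0.000410) in 33 of 39. Mdm4, which encodes a p53 inhibitor related to MDM2, was at 0.010 in cortex (adjusted p = 0.835) and -0.098 in liver (adjusted p = 0.373). Chek1, a checkpoint kinase gene, rose in cortex (0.32), as did Ep300 (0.12) and Trp53bp2 (0.10), and Atm fell (-0.093). The checkpoint kinase genes Atr (-0.45) and Atm (-0.24) fell in liver, and Trp53bp1 (0.23) and Ppm1d (0.19) rose.

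Of 28 listed p53 targets other than the members, 10 rose and 9 fell in cortex (median 0.017), and 9 rose and 4 fell in liver (median 0.058), shares of 67.9% and 46.4% that are close to those of all genes. In cortex Fas, a death receptor gene, rose by a log2 fold change of 0.70 (SE 0.086, adjusted p = 2.69e-11, limma) in 38 of 39 pools. Sfn (0.63) and Plk3 (0.60) rose too, while Bbc3, which encodes the apoptosis protein PUMA, fell (-0.60, SE 0.050, adjusted p = 1.03e-18) in 39 of 39 pools. Bbc3 also fell in liver (-0.40), as did Gtse1 (-0.54), and Eda2r (0.59) and Plk3 (0.50) rose.

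Of the other cyclin-dependent kinase inhibitors, 5 of 6 were listed, and Cdkn2a was not. In cortex none rose and 2 fell (median -0.055), among them Cdkn1c, a relative of Cdkn1a, at -0.69 (SE 0.061, adjusted p = 2.14e-17, limma) in 39 of 39 pools, and Cdkn2d (-0.17). In liver Cdkn2b fell (-0.57), Cdkn1b rose (0.10), and the list had a median of -0.15. In each tissue 2 of 5 thus passed. In liver Cdkn2c (-0.23) passed as well in the fit that pairs pools of a line in a replicate block (adjusted p = 0.000852, limma). Cdkn1a was the single listed inhibitor of this family that rose in cortex.

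Of the cyclins and kinases of the cell cycle, 6 of 14 listed genes rose and 6 fell in cortex (median 0.062), and 4 of 15 rose and 4 fell in liver (median 0.060), with called shares of 85.7% and 53.3%. Ccnb2 (0.69), Ccnd3 (0.53) and Ccnd2 (0.42) rose in cortex, and Ccne2 fell (-0.44). In liver Ccnd1 fell (-0.62, SE 0.15, adjusted p = 0.000526, limma) in 36 of 39 pools, and Ccne2 (0.49), Ccne1 (0.32) and Ccng2 (0.31) rose. Ccng2, a relative of Ccng1, rose in cortex as well (0.15, SE 0.019, adjusted p = 2.25e-11, limma).

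Gadd45 effectors, the genes of stress-activated kinases and other binding partners, split likewise. In cortex 4 of 12 rose and 3 fell (median 0.026), with Mapk11, which encodes p38 beta, rising by 0.58 in 39 of 39 pools, Map2k3 (0.37) and Gadd45gip1 (0.14) rising, and Mapk9 falling (-0.15). In liver 2 of 11 rose and 5 fell (median -0.025). The called shares were 58.3% and 63.6%. Mapk14, which encodes p38 alpha, rose there (0.26), and Mapk8 (-0.27), Map2k6 (-0.23) and Mapk11 fell. For Mapk11 the log2 fold change was -0.28 (adjusted p = 0.0451, limma), and it did not pass in the fit that pairs pools of a line in a replicate block (adjusted p = 0.0562).

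The genes of the list called other GADD genes, Ddit3, Ppp1r15a and Ddit4, all rose in both tissues, 3 of 3 in each. Ddit4 rose by a log2 fold change of 0.49 in cortex and 0.68 in liver, Ddit3 by 0.32 and 0.30, and Ppp1r15a by 0.12 and 0.15 (limma). Their median was 0.32 in cortex and 0.30 in liver.

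**Figure D5:**
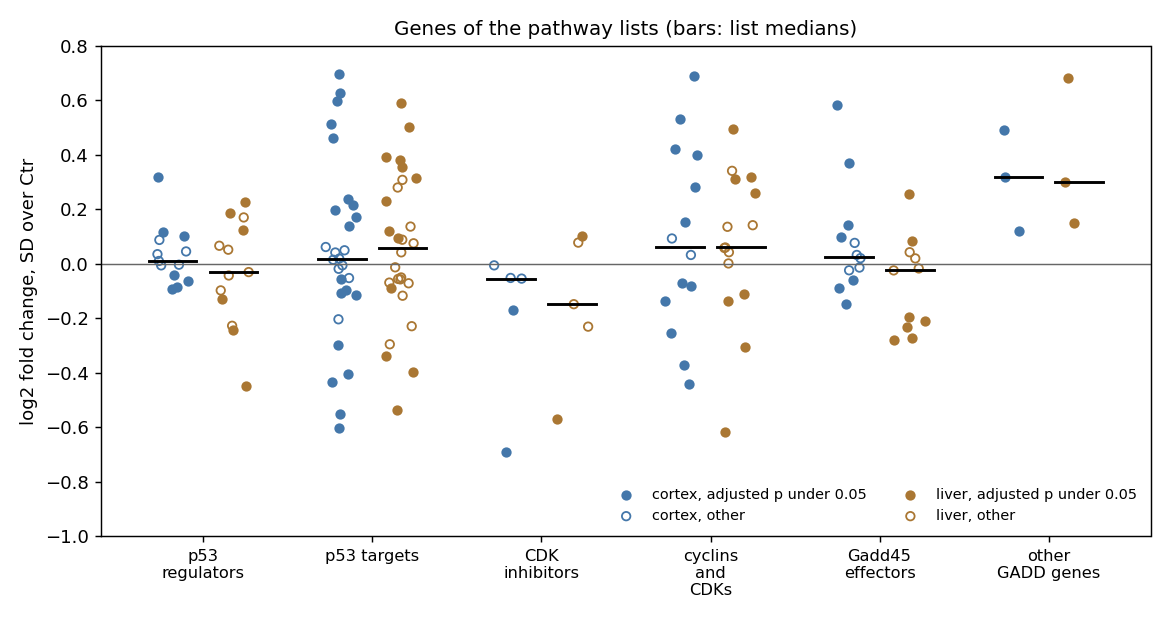
Log2 fold change (SD over Ctr) of the genes of 6 pathway lists in cortex and liver, filled where the adjusted p was under 0.05, with list medians as bars. Rising and falling genes occur in each list but the other GADD genes, and for the CDK inhibitors of cortex the filled points are below 0.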

How the data were processed

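The values used were log2 CPM as deposited by the authors, who checked single-end reads with FastQC, used STAR for alignment to mm9 and HTSeq for counts per RefSeq gene by strand, dropped genes with low counts and scaled with edgeR (TMM), for cortex and liver apart. Undoing this gave whole reads for 100% of values. Outside the BXD/TyJ lines these lay at most 5.91e-09 from a whole number, with 18995492 to 28998853 reads per library in cortex and 4681101 to 8269401 in liver. Tests used limma 3.58.1 in R 4.3.3 (eBayes with trend, 39 pools per group, adjusted over all genes), with voom on recovered reads as an alternative, and permutations (100000, two-sided) in Python 3.11.15. For the change per pool, SD and Ctr pools of a line are paired by the line name in the labels. Their deviations correlated at 0.299 or more in cortex and 0.169 or more in liver. The limma fit of SD against Ctr did not use this pairing, except where the line was a replicate block. Other alternatives changed scaling, filter or pools. BXD56 and each pool in turn were left out, and all-gene correlations made, by a choice made after seeing the data. Named genes are the members, the 3 nearest genes, Trp53, Mdm4, Ccng2 and up to 4 called genes per list and tissue with the largest change. Members and lists were chosen with earlier results of these data known.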

Additional observations from a re-analysis of the deposited data

Results flagged for a closer look

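For 3 genes the response to SD differed between tissues by the test of the difference itself (liver minus cortex, limma). Gadd45a differed by -1.53 on the log2 scale, with a mean change of 0.92 in cortex and -0.61 in liver. Cdkn1a differed by -0.70, with mean changes of 1.64 and 0.94, and Mdm2 by -0.27, with 0.19 and -0.076. In the 24 groups of 4 BXD/TyJ values (6 genes, tissue and condition) no line lay apart from the others by Dixon's gap test. The cause of these differences was not tested.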

How the results depend on the processing

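Direction and call held for the 6 genes in cortex under all 12 alternatives, and in liver for all but Gadd45g and Mdm2. The tissue differences of Gadd45a, Cdkn1a and Mdm2 held under all 10. Gadd45g in liver lost its call with the 33 BXD/RwwJ lines alone (0.41, adjusted p = 0.106), parental pools averaged (0.40, 0.0820) and voom with the line as a replicate block (0.41, 0.0649), within a range of adjusted p of 0.0163 to 0.106. Leaving out 1 pool at a time gave 0.40 to 0.55 for Gadd45g and -0.081 to -0.064 for Mdm2 in liver, with the calls lost for 12 and 15 of 39 pools. Mdm2 in liver lost its call with voom (-0.071, adjusted p = 0.0514) and without BXD56 (-0.074, 0.0552), within a range of 0.0151 to 0.0552. The difference between tissues, not called in the first place, changed sign for Gadd45g with all 43 pools (0.010) and without BXD79, BXD85 and BXD101 (0.052), and for Ccng1 with all 43 pools (-0.0036), the 33 lines (-0.00018) and parental pools averaged (-0.0014). Of relations between Ctr and SD levels, 2 instead of 1 passed without BXD79, BXD85 and BXD101. Of 45 other values of called relations, 36 kept their call and 9 lost it. With the line as a replicate block 11359 genes passed in cortex and 7603 in liver, and beyond the changes given the block changed no other call of the 6 genes. In the lists it ended the call of Mapk11 in liver and added calls of pathway and marker genes. The cause of these differences was not tested. Liver libraries held fewer reads, and Gadd45b had 2 to 30 reads per Ctr library there.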
